A study of Mus musculus with 71 samples.

Results

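Histone deacetylases (HDACs) take acetyl groups off the lysines of histone tails, which closes chromatin, and the methyltransferases Ehmt1 (GLP) and Ehmt2 (G9a) place mono- and dimethyl groups on lysine 9 of histone H3 (H3K9), a repressive mark. The genes described here are Hdac1, Hdac2, Hdac3, Hdac4, Hdac5, Hdac7, Hdac9, Hdac11, Ehmt1 and Ehmt2, taken from the tables by their gene symbols. These 10 symbols took 11 of the 37681 rows of each table, because Hdac4 had 2 rows. RNA-seq had been carried out on micro-punches of the nucleus accumbens (NAc), ventral tegmental area (VTA) and prefrontal cortex (PFC) of C57BL/6 mice, male and female in the methods and 8 weeks old. The mice were wild type, and all of them had first learned to work for food. Over 21 days they then worked for infusions of cocaine (0.7 mg/kg each) or of saline, and tissue was taken after 1 or 28 days of abstinence. The 3 regions, 2 time points and 2 treatments gave 12 groups and 71 libraries, with 6 libraries in each group except the saline VTA at 28 days, which had 5. Neither the labels nor the column names say whether a library is 1 mouse or a pool, or whether the regions came from the same mice, so each p-value measures only the spread between these libraries, which may be technical. Each comparison asks whether cocaine self-administration followed by abstinence went with another mRNA level than saline. In bulk tissue, fewer cells of a type and less RNA per cell cannot be told apart.

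Class I HDACs (Hdac1, Hdac2, Hdac3) are nuclear enzymes that work inside large corepressor complexes such as Sin3, NuRD, CoREST and NCoR. Class IIa HDACs (Hdac4, Hdac5, Hdac7, Hdac9) have weak activity of their own, bind MEF2 transcription factors, and move between nucleus and cytoplasm when phosphorylated in response to neuronal activity. Hdac11 is the single class IV member and is abundant in brain and in oligodendrocytes. Ehmt1 and Ehmt2 form a heterodimer, and in the NAc both Hdac5 and G9a are known from earlier work on behavioral responses to cocaine.

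In the mouse build mm9, which the files use, Hdac1 (ENSMUSG00000028800) lies at chr4:129193348-129219957, Hdac2 (ENSMUSG00000019777) at chr10:36694350-36721695 and Hdac5 (ENSMUSG00000008855) at chr11:102055746-102091480. Hdac7 (ENSMUSG00000022475) lies at chr15:97623095-97674933, Hdac9 (ENSMUSG00000004698) at chr12:34732451-35213754 and Hdac11 (ENSMUSG00000034245) at chr6:91106659-91124686. Ehmt1 (ENSMUSG00000036893) lies at chr2:24646289-24775129 and Ehmt2 (ENSMUSG00000013787) at chr17:35035414-35050997. Hdac3 (ENSMUSG00000024454) is named without its position, and all members are protein coding. The main Hdac4 row (ENSMUSG00000026313) covers chr1:93829334-94044970 on the minus strand, and the other row with that symbol (ENSMUSG00000073617, here the Hdac4 3′ row) is a single exon at chr1:93825362-93827753, 3′ of the first on the same strand. Hdac4, Hdac7 and Hdac11 each overlap a gene on the opposite strand (Gm17418 for Hdac4, Slc48a1 and Gm17532 for Hdac7, Gm14573 for Hdac11). The strand used in counting is not given in the sources used here, so the values of these 3 genes may hold reads of their partners.

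Promoters are shown for 4 members whose levels carry the comparisons that follow: Hdac5 and Ehmt2, the pair known from cocaine studies, Hdac9, which differed most between regions, and Hdac11, the most abundant. The sequences are from RefSeq (GRCm38.p6) and run 5′ to 3′ over the 250 bases before the annotated start, on the strand of the gene. Capitals mark matches, on either strand, to a GC box (GGGCGG, the letters of Sp1 sites) or a MEF2 element. The NBRE (AAAGGTCA), the element of Nr4a1, was also searched.
Hdac5, chr11:102230173-102230422, minus strand: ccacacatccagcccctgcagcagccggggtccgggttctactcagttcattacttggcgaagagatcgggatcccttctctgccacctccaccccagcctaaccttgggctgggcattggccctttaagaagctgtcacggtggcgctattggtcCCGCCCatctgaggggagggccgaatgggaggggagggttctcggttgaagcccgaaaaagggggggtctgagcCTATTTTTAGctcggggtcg
Ehmt2, chr17:34898224-34898473, plus strand: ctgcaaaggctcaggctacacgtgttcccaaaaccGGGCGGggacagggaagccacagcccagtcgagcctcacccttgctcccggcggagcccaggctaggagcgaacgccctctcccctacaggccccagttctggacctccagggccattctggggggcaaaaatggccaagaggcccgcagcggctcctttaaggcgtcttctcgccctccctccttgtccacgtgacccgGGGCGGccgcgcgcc
Hdac9, chr12:34528890-34529139, minus strand: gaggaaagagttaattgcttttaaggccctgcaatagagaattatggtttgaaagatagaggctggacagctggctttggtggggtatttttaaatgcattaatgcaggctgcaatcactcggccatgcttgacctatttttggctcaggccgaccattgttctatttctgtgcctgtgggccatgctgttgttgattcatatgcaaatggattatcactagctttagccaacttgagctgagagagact
Hdac11, chr6:91156565-91156814, plus strand: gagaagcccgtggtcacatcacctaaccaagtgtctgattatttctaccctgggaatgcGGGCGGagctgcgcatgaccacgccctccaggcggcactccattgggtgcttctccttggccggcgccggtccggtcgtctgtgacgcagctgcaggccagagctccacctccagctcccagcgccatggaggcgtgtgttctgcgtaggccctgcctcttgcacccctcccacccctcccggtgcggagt
Of the 10 symbols, 8 had at least 1 window, 13 windows in all. Of the windows shown, that of Hdac5 held 1 GC box and 1 MEF2 element, that of Ehmt2 2 GC boxes and that of Hdac11 1 GC box. The Hdac9 window shown held none of the 3 motifs. Ehmt2 had another window (chr17:34898720-34898969, not shown) with 4 GC boxes, and Hdac9 another with none of the motifs. A GC box was found in 8 of the 13 windows and in 32.7% of the 32851 windows of all genes. The MEF2 element was found in 1 of the 13 windows (2.92% of all), and the NBRE in 0 of the 13 (1.34% of all), which says only that these letters are not in these windows. The windows of Hdac9 held 0 and 2 CpG dinucleotides, against a median of 6.0 over all windows and 5 to 36 in the windows of the other members.

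Libraries held between 20971967 and 49700932 reads on genes, and a member row between 213 and 21659 of them. Pairs of libraries within a group all differed by more than sampling noise. The summed level of striatal neuron markers was 1494 to 3543 RPKM (reads scaled by gene length and by library size) in the NAc and 68.1 to 147 RPKM elsewhere, with 1 exception. PFC saline replicate 4 at 28 days had 1265 RPKM of these markers, and its cortical neuron markers, at 482.7 RPKM, were the lowest of its group. The 8 dopamine neuron markers summed to 646 to 2577 RPKM in the VTA and to 11.2 to 35.8 RPKM elsewhere, and the defining marker Pitx3 was low in the VTA at 1 day too (0.428 RPKM by mean after saline, 0.310 after cocaine), against 5.57 and 5.95 RPKM at 28 days. Cortical neuron markers reached 293.7 RPKM in single NAc libraries.

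Per length, Hdac11 was the highest member in all 6 saline groups, and it did not overlap the next member in any of them. Its mean was 78.6 RPKM ± 11.5 (SD, n = 6) in the NAc, 130.2 ± 7.26 in the VTA and 72.4 ± 7.32 in the PFC at 1 day, and 104.5 ± 10.8, 147.8 ± 18.7 (n = 5) and 98.9 ± 4.79 at 28 days. RPKM values at 28 days and in the NAc were computed here from the counts, with the gene lengths that the deposited RPKM values imply. Ehmt2 was far above its partner Ehmt1 in every saline group. In the NAc at 28 days the level of Ehmt2 was 67.8 RPKM ± 3.78 and that of Ehmt1 8.44 ± 0.823. Among class I, Hdac2 and Hdac3 were above Hdac1 in all saline groups by mean, and in the VTA at 28 days the libraries of Hdac2 and Hdac1 overlapped. Hdac5 was the highest class IIa member, with 36.8 RPKM ± 4.68 in the NAc, 44.0 ± 2.44 in the VTA and 40.8 ± 3.13 in the PFC at 28 days. Hdac4, Hdac7 and Hdac9 were at most 11.7 RPKM in any saline library, and at the low end of the order neighbours mostly overlapped. The lowest member in the NAc at 28 days was Hdac9, at 2.76 RPKM ± 0.351, whereas in the PFC at 1 day it stood at 10.1 ± 0.945.

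**Figure D1:**
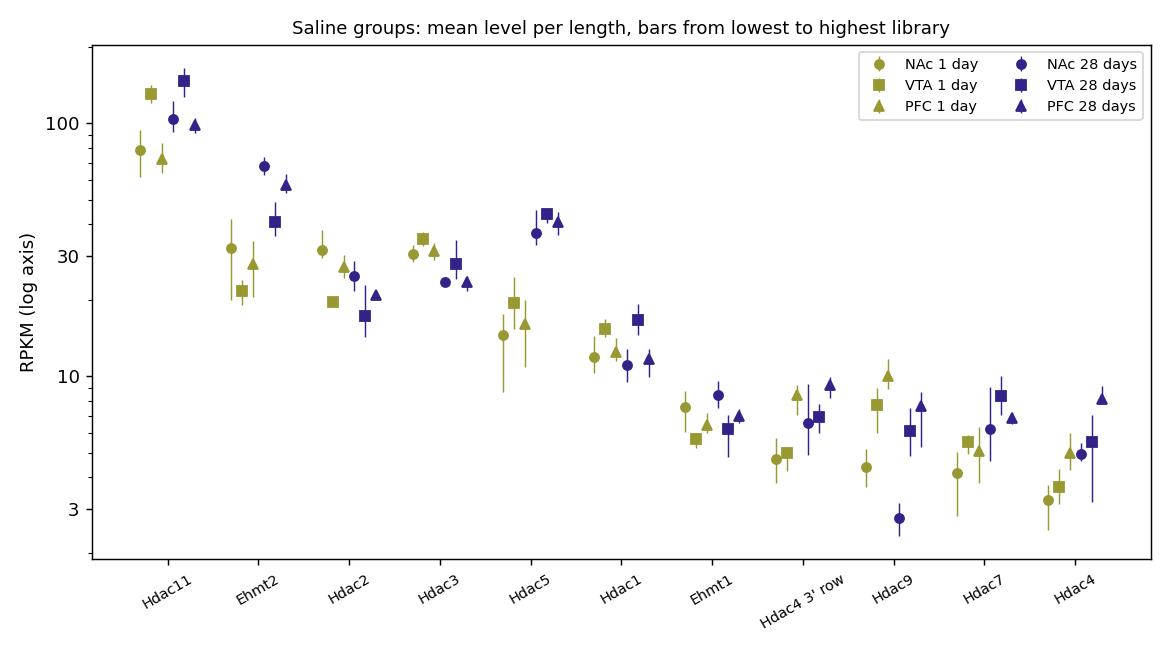
Mean level of each member in the 6 saline groups, in RPKM on a log axis, with bars from the lowest to the highest library (n = 6, or 5 for the VTA at 28 days). Hdac11 lies highest in every group, with means from 72.4 to 147.8 RPKM.

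The members differed between regions. In the saline groups at 28 days, edgeR's quasi-likelihood test called 7 of the 11 rows between NAc and VTA, 7 between NAc and PFC and 8 between VTA and PFC (Benjamini-Hochberg adjusted p under 0.05 over all 17679 genes). These shares are 63.6%, 63.6% and 72.7%, beside 67.1%, 46.5% and 63% of all genes tested. Hdac9 was lowest in the NAc, Ehmt2, Ehmt1 and Hdac2 were highest there, Hdac1 and Hdac11 were highest in the VTA, and both Hdac4 rows were highest in the PFC.

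Among class I, Hdac1 was at 9.53 to 12.9 RPKM in the NAc (median 10.8), 9.94 to 12.8 in the PFC (median 11.6), and 15.7, 14.6, 17.0, 19.4 and 16.8 in the 5 VTA libraries. All VTA libraries were above all others. Between NAc and PFC the log2 difference of Hdac1 was -0.11 (SE 0.0679, edgeR adjusted p = 0.212). That difference passed without PFC saline replicate 4, the library with striatal markers (-0.16, edgeR adjusted p = 0.0435). On the log2 scale of the counts the level was 0.48 lower in the NAc than in the VTA (log2 difference -0.48, SE 0.0708, edgeR adjusted p = 3.41e-07) and 0.38 higher in the VTA than in the PFC (SE 0.0707, adjusted p = 2.10e-05). Hdac2 went the other way, with 21.7 to 28.6 RPKM in the NAc (median 24.3), 20.5 to 21.7 in the PFC (median 20.8) and 23.0, 16.6, 16.002, 16.7 and 14.3 in the VTA. Its fold between NAc and VTA was 1.56 (log2 difference 0.64, SE 0.0824, edgeR adjusted p = 2.98e-08), and VTA saline replicate 1 stood apart from the other VTA libraries. The smaller difference of Hdac2 between NAc and PFC (0.23, edgeR adjusted p = 0.0155) no longer passed without NAc saline replicate 3 (adjusted p = 0.0589) or replicate 4 (adjusted p = 0.0667). For Hdac3, the catalytic subunit of the NCoR complex, no pair of regions passed. Its saline means were 23.5 RPKM ± 0.867 in the NAc, 27.8 ± 4.19 in the VTA and 23.6 ± 1.23 in the PFC, and the interval of its log2 difference between NAc and PFC ran from -0.15 to 0.10. Between NAc and VTA it passed without VTA saline replicate 3 (edgeR adjusted p = 0.0245) or replicate 5 (adjusted p = 0.0401), and in the cocaine groups (adjusted p = 0.0437).

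Within class IIa, Hdac9 had the largest regional difference of all members. It was at 2.34 to 3.16 RPKM in the NAc (median 2.84), at 5.64, 7.51, 6.32, 6.13 and 4.84 in the VTA and at 5.27 to 8.68 in the PFC (median 7.92). No NAc library overlapped the other regions. The VTA and PFC libraries of Hdac9 overlapped, but this pair was called too (log2 difference VTA minus PFC -0.46, SE 0.125, edgeR adjusted p = 0.00186). The fold was 2.81 between PFC and NAc (log2 difference NAc minus PFC -1.49, SE 0.122, edgeR adjusted p = 9.00e-12) and 2.04 between VTA and NAc (-1.03, SE 0.126, adjusted p = 1.10e-08). The lowest PFC library, at 5.27 RPKM, was replicate 4, the library with striatal markers. In size, the difference of Hdac9 between NAc and PFC stood at percentile 93.5 of all genes tested. Hdac4 was 1.67-fold higher in the PFC than in the NAc (-0.74, SE 0.113, edgeR adjusted p = 1.45e-06), and the Hdac4 3′ row 1.44-fold (-0.52, SE 0.117, adjusted p = 3.57e-04). For Hdac5 and Hdac7 the calls between regions depended on the libraries and the tool. Hdac5 passed between NAc and PFC (-0.18, SE 0.0687, edgeR adjusted p = 0.0351), and that call was lost without NAc saline replicate 3, 4 or 5 or PFC saline replicate 2 or 4 (adjusted p = 0.0512 to 0.0897). Between NAc and VTA Hdac5 missed the threshold (-0.15, SE 0.0719, edgeR adjusted p = 0.0669), but it passed without NAc saline replicate 1 (-0.20, adjusted p = 0.0101), in the 1-day libraries (-0.34, adjusted p = 0.0263) and in the cocaine groups (-0.19, adjusted p = 0.0163). Hdac7 passed between NAc and VTA (-0.32, SE 0.112, edgeR adjusted p = 0.0128), and not without VTA saline replicate 4 (adjusted p = 0.0507). Between NAc and PFC Hdac7 differed by -0.16 (edgeR adjusted p = 0.223), and it passed without NAc saline replicate 1 (-0.29, adjusted p = 0.0140), in the 1-day libraries (-0.34, adjusted p = 0.0432) and in the cocaine groups (-0.38, adjusted p = 0.00387).

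Hdac11 was at 92.8 to 122 RPKM in the NAc (median 101), at 165.7, 160.0, 158, 128 and 127 in the VTA and at 91.6 to 105 in the PFC (median 98.7). On this scale the VTA libraries were all above those of the other regions, whereas in TMM-scaled CPM, the scale of the test, the lowest VTA library (308.9 CPM) was below the highest of the NAc (318.4 CPM). The VTA level was higher by 0.39 than that of the NAc (log2 difference NAc minus VTA -0.39, SE 0.0681, edgeR adjusted p = 6.02e-06) and by 0.45 than that of the PFC (SE 0.0681, adjusted p = 7.97e-07). The oligodendrocyte markers, in which Hdac11 is known to be high, summed to 3745 to 7262 RPKM in the same VTA group, 1436 to 1686 in the NAc and 951 to 2262 in the PFC, and their part in the regional difference was not tested. Ehmt2 followed the order NAc, PFC, VTA, with 62.4 to 73.5 RPKM (median 67.4), 53.0 to 63.1 (median 56.1), and 49.1, 38.0, 40.4, 40.9 and 35.9. The VTA group did not overlap either of the others. Between NAc and VTA the fold of Ehmt2 was 1.79 (0.84, SE 0.0608, edgeR adjusted p = 6.65e-14) and between NAc and PFC 1.16 (0.22, SE 0.0570, adjusted p = 0.00180). Ehmt1 had the same order, 1.47-fold between NAc and VTA (0.56, SE 0.0673, edgeR adjusted p = 9.06e-09).

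**Figure D2:**
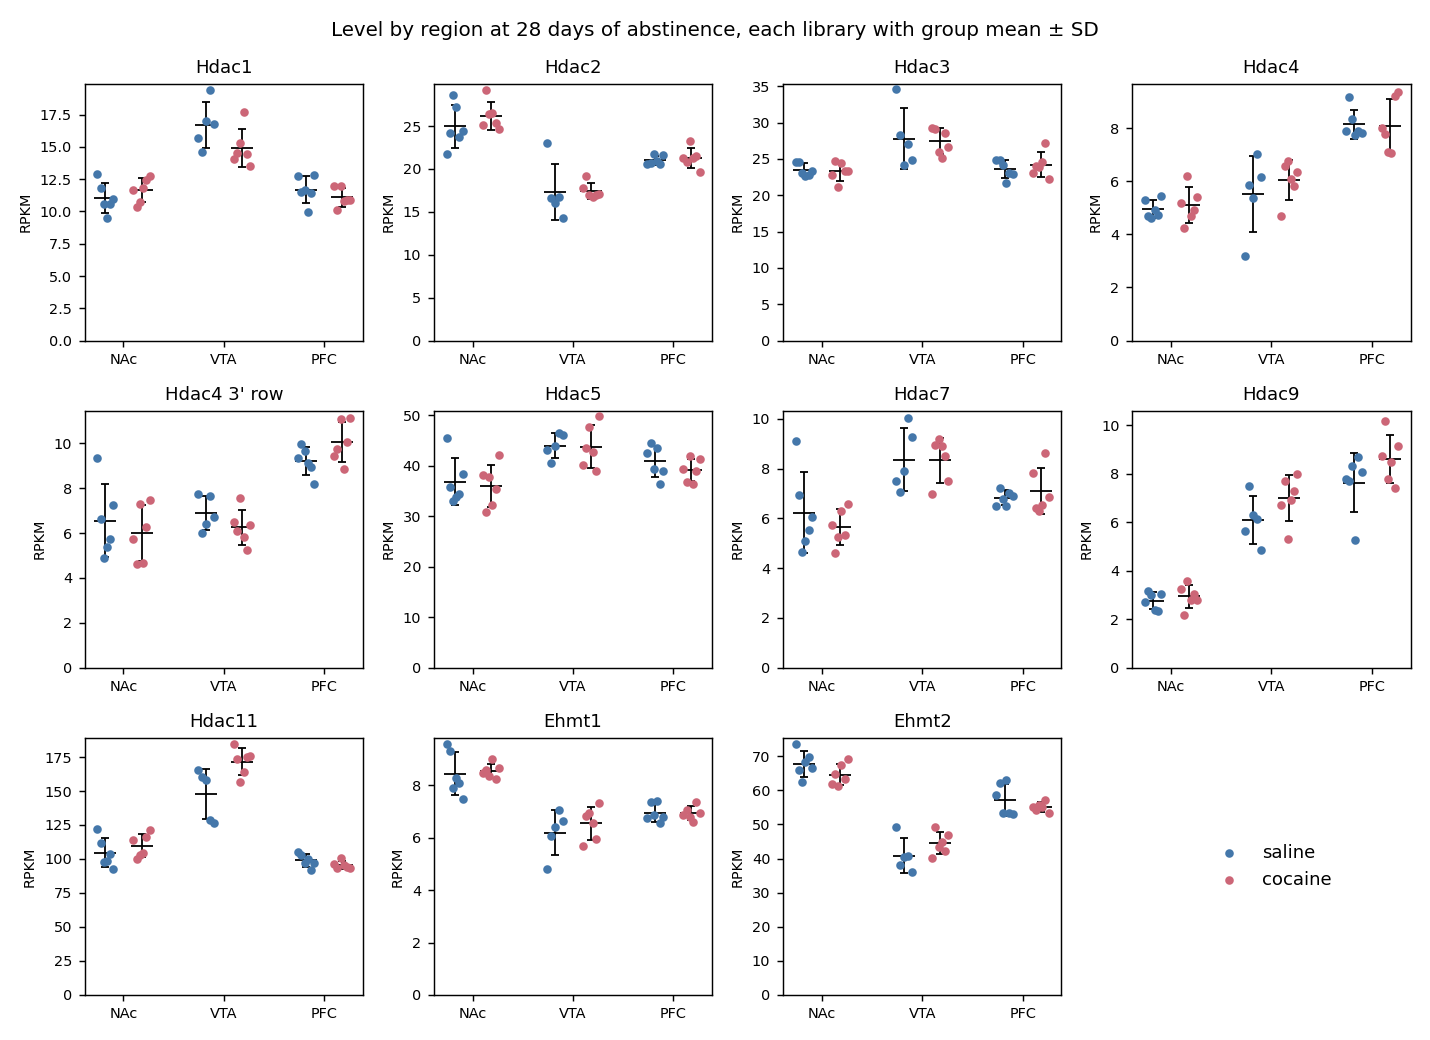
Level of each member (RPKM, axes from 0) in every library at 28 days of abstinence, by region, with saline in blue and cocaine in red. Points are libraries (n = 6, 5 for saline VTA), and lines the group mean ± SD. Hdac9 is lowest in the NAc (2.76 RPKM in saline) and Ehmt2 highest there (67.8 RPKM), while saline and cocaine overlap in every panel.

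Between the time points the saline NAc libraries differed most in Hdac5 and Ehmt2, although time point and any difference in how the libraries of each time point were made cannot be told apart, so no test is given. Hdac5 was at 8.70 to 17.7 RPKM at 1 day and 33.0 to 45.6 RPKM at 28 days, and Ehmt2 at 19.98 to 42.1 and 62.4 to 73.5. In neither gene did the time points overlap. The log2 difference of Hdac5 was 1.34 in the NAc, 1.17 in the VTA and 1.35 in the PFC, and that of Ehmt2 was 1.07, 0.91 and 1.04. Of 16612 genes in the NAc, 4.84% were at least as far from 0 as Hdac5 and 8.67% as Ehmt2. The other members lay between -0.66 (Hdac9) and 0.60 (Hdac4) in the NAc.

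No member differed between cocaine and saline beyond the threshold in any region at either time point. Over the 66 member tests (11 rows in 6 tables), 0 had an adjusted p under 0.05, 5 had an unadjusted p under 0.05, and 6 an exact permutation p under 0.05. The permutation test was run on the members only. Of all genes tested, 4.01% in the NAc, 15.7% in the VTA and 3.78% in the PFC had an unadjusted p under 0.05 at 1 day. At 28 days these shares were 6.76%, 11.5% and 5.66%. In 0 of the 66 member tests were the saline and cocaine libraries fully separate. That count was not made over all genes, so it cannot set the members apart from other genes. The absolute log2 difference had a median of 0.066 and a maximum of 0.27, 41 of 66 were under 0.1, and in 65 of 66 the approximate 95% interval stayed within 0.5 in either direction. The standard errors of the members ran from 0.0407 (Hdac11, PFC at 28 days) to 0.181 (Hdac9, NAc at 1 day). The calls over all genes were also few. They made up 0.0126% of 15878 genes in the NAc, 0.0665% of 15042 in the VTA and 0.00693% of 14427 in the PFC at 1 day. At 28 days edgeR called 0% of 16295 genes in the NAc, 0% of 16937 in the VTA and 0% of 16340 in the PFC. With DESeq2 11, 74 and 2 genes were called in these 3 tables, and 1102, 1942 and 925 had an unadjusted p under 0.05 in edgeR.

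**Figure D3:**
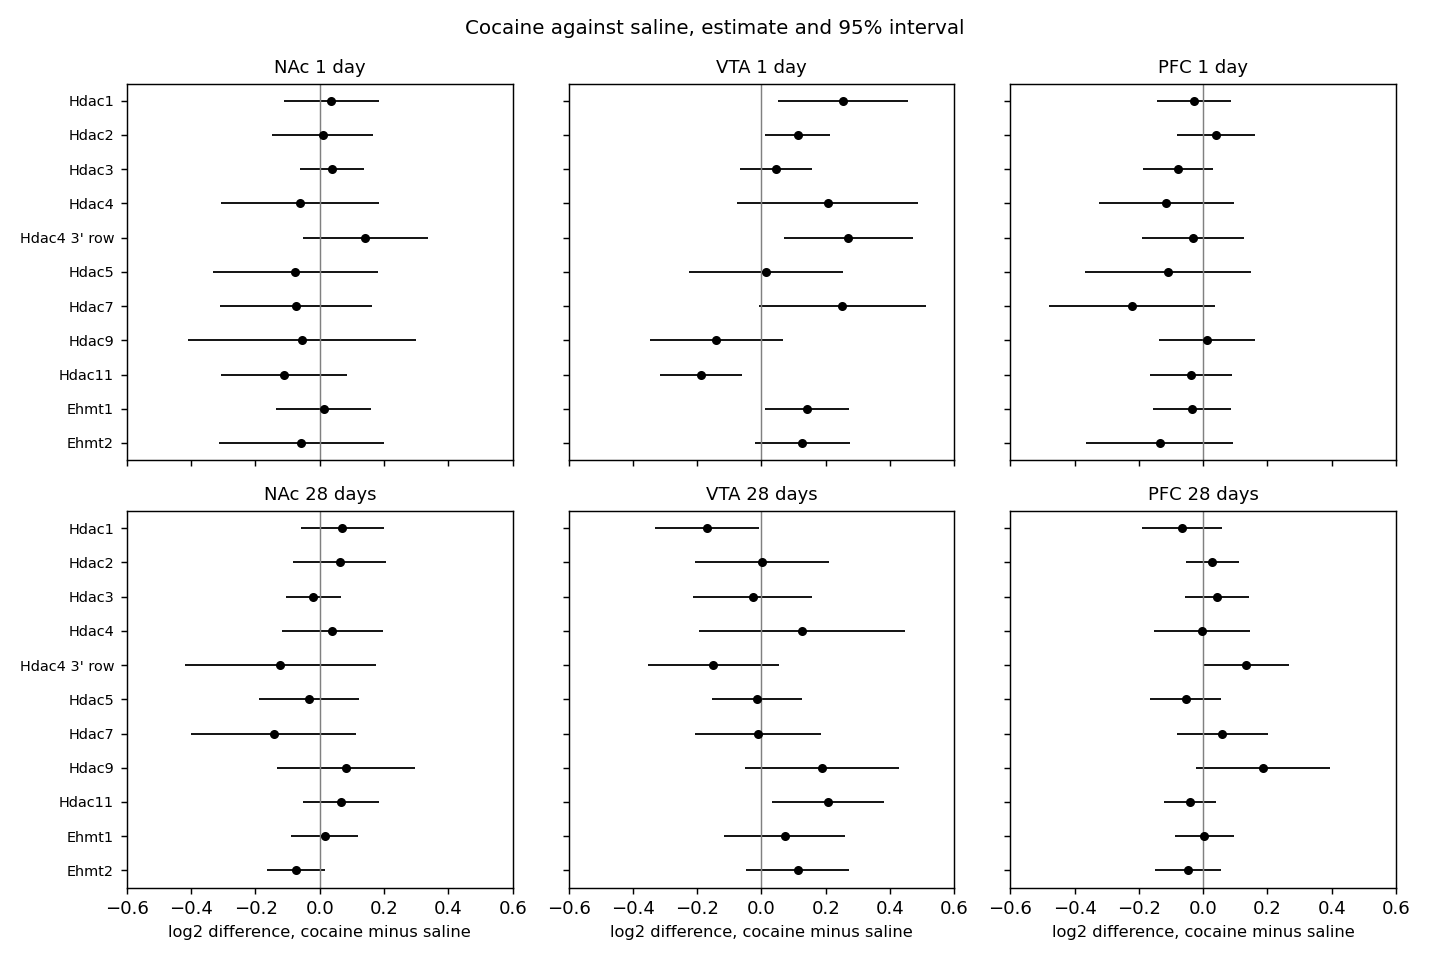
Log2 difference of cocaine minus saline for each member row in the 6 tables, with the approximate 95% interval, on a common axis. All 66 estimates lie between -0.22 and 0.27, and 1 interval, that of Hdac7 in the VTA at 1 day, passes 0.5.

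In the NAc, the region in which Hdac5 and G9a are best known from cocaine work, the members' levels after cocaine lay inside the range of the saline libraries for the most part. Levels of the NAc and of the 28-day tables are in CPM, counts scaled by the TMM library size and not by gene length. Hdac5 at 1 day was at 49.3 to 92.6 CPM after saline (median 79.7) and at 62.5 to 88.5 CPM after cocaine (median 71.6), so that all cocaine libraries lay within the saline range (log2 difference -0.08, SE 0.131, edgeR adjusted p = 1.00). At 28 days the level of Hdac5 was 181 to 238 CPM after saline (median 191) and 169 to 223 CPM after cocaine (median 197), and the difference was -0.03 (SE 0.0797, edgeR adjusted p = 0.961). Ehmt2, the G9a gene, was at 84.5 to 164 CPM after saline and 105 to 150 CPM after cocaine at 1 day. Its log2 difference was -0.06 at 1 day (SE 0.131, edgeR adjusted p = 1.00) and -0.08 at 28 days (SE 0.0460, adjusted p = 0.806). At 28 days 0 of 6 cocaine libraries were above the saline mean of Ehmt2, and 3 were below all saline libraries (249 to 274 CPM after cocaine, 256 to 289 after saline, exact permutation p = 0.0866). Its partner Ehmt1 differed by 0.01 at both times. At 1 day the largest differences were those of the Hdac4 3′ row (0.14, SE 0.0990) and of Hdac11 (-0.11, SE 0.0995), and at 28 days those of Hdac7 (-0.14, SE 0.131) and the Hdac4 3′ row (-0.12, SE 0.151). The signs were 5 positive and 6 negative at 1 day and 6 and 5 at 28 days. The difference between the time points was itself tested across the 24 NAc libraries in a single edgeR model. No member was among the 3 genes called (0.0181% of 16612), and the largest member difference was that of the Hdac4 3′ row (-0.25, SE 0.190, edgeR adjusted p = 0.999).

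The VTA at 1 day of abstinence was the table in which the groups of the members stood furthest apart. Of the 11 differences 9 were positive, beside 58.9% of all genes. By limma 4 of the 11 rows had an unadjusted p under 0.05, beside 15.7% of all genes. Here lay 5 of the 6 permutation p-values under 0.05, and no share over all genes stands beside that count. None passed the adjusted threshold. These values are RPKM, tested with limma on log2(RPKM + 0.1). Hdac11 was the member with the smallest p. Its libraries ranged from 120.4 to 142 RPKM after saline (median 129) and from 100.2 to 132 after cocaine (median 114). The groups overlapped, but 5 of 6 cocaine libraries were below all saline libraries. The means were 130.2 ± 7.26 and 115 ± 11.2 (SD, n = 6 each), a log2 difference of -0.19 (SE 0.0657, limma adjusted p = 0.219, exact permutation p = 0.0238).

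The Hdac4 3′ row had the largest difference of any member in any table. Its level was 4.22 to 5.25 RPKM after saline (median 5.11) and 5.14 to 7.46 after cocaine (median 5.70), with 5 of 6 cocaine libraries above all saline libraries (0.27, SE 0.102, limma adjusted p = 0.243, exact permutation p = 0.0108). The main Hdac4 row leaned the same way with a wider error (0.21, SE 0.144, limma adjusted p = 0.527), at 2.92 to 5.45 RPKM after cocaine and 3.12 to 4.30 after saline. Hdac1, which with Hdac2 forms the catalytic core of Sin3 and NuRD, was at 14.3 to 16.9 RPKM after saline (median 14.9) and 15.1 to 24.5 after cocaine (median 17.8). For Hdac1, 4 of 6 cocaine libraries lay above all saline libraries (0.25, SE 0.103, limma adjusted p = 0.262, exact permutation p = 0.0346). Hdac2 was at 19.0 to 20.5 RPKM after saline (median 19.7) and 19.9 to 23.8 after cocaine (median 21.02). All 6 cocaine libraries were above the saline mean of Hdac2, and 3 were above its highest saline library (0.11, SE 0.0513, limma adjusted p = 0.311, exact permutation p = 0.0281). Ehmt1 was at 5.24 to 5.95 RPKM after saline (median 5.73) and 5.55 to 7.00 after cocaine (median 6.23), with 5 of 6 cocaine libraries above all saline ones (0.14, SE 0.0665, limma adjusted p = 0.329, exact permutation p = 0.0368). Its partner Ehmt2 differed by a like amount (0.13, SE 0.0754, limma adjusted p = 0.447). Hdac5 differed by 0.01 (SE 0.122), Hdac3 by 0.05 (SE 0.0565), Hdac7 by 0.25 with 1 cocaine library far above the rest, at 9.97 RPKM, and Hdac9 by -0.14 (SE 0.105).

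Cell type markers differed between the same VTA groups at 1 day. Of the 7 dopamine neuron markers tested 0 were higher after cocaine, and 5 were lower at an unadjusted p under 0.05. Their summed level over 8 markers was 1080 to 2467 RPKM after saline and 648 to 1526 after cocaine. All 11 microglia markers were lower (183.5 to 293 RPKM after saline, 121 to 214 after cocaine), 9 of them at an unadjusted p under 0.05. The 5 fibroblast markers were all higher (12.98 to 69.9 RPKM after saline, 37.0 to 237 after cocaine), as were the 6 cortical neuron markers tested (10.1 to 38.4 and 17.7 to 83.3 RPKM over 9 markers), and all 9 oligodendrocyte markers were lower. All 7 endothelium markers were higher as well (97.2 to 133 RPKM after saline, 102 to 179 after cocaine), 2 of them at an unadjusted p under 0.05. None of these genes passed the adjusted threshold. Of all genes tested in this comparison, 58.9% were positive and 15.7% had an unadjusted p under 0.05. With the mean log2 level of a marker list as a covariate, the Hdac11 difference was -0.16 (cortical neurons), -0.12 (dopamine neurons), -0.07 (microglia) and -0.17 (fibroblasts), beside -0.19 without one, and the limma adjusted p ranged from 0.451 to 1.00. Other members moved more. Over the other settings the Hdac1 difference ran from 0.020 (fibroblast covariate) to 0.41 (microglia covariate), beside 0.25, and the Hdac7 difference from 0.011 to 0.61 with the same covariates, beside 0.25. The Hdac5 difference ran from -0.16 (dopamine neurons) to 0.41 (microglia), beside 0.01. None of these passed (limma adjusted p at least 0.153 for Hdac1, 0.269 for Hdac7 and 0.272 for Hdac5). Among the other alternatives edgeR on whole reads recovered from the RPKM values gave Hdac11 -0.23 (adjusted p = 0.124).

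In the VTA at 28 days Hdac11 was the member with the smallest p again, with the other sign. Its 5 saline libraries stood at 446, 434, 423, 334 and 341 CPM, and its cocaine libraries at 418.5 to 498 CPM (median 461). All 6 cocaine libraries were above the saline mean and 4 were above every saline library, and the 2 low saline libraries were replicates 4 and 5. The log2 difference was 0.21 (SE 0.0895, edgeR adjusted p = 0.417, exact permutation p = 0.0281 over 462 divisions). The 9 oligodendrocyte markers were all lower after cocaine, 3 of them at an unadjusted p under 0.05 and 0 called (3745 to 7262 RPKM after saline, 2607 to 4674 after cocaine), and with their mean level as a covariate the Hdac11 difference was 0.19 (edgeR adjusted p = 0.651). Other marker lists were lower after cocaine too, with 0 genes called. Of all genes tested in this comparison, 43.1% were positive and 11.5% had an unadjusted p under 0.05. All 11 microglia markers were lower (221 to 434.0 RPKM after saline, 149.9 to 251 after cocaine) and all 7 endothelium markers (116 to 252 and 104 to 149), each with 3 genes at an unadjusted p under 0.05. The 5 fibroblast markers were also all lower (13.5 to 205 and 11.4 to 83.0 RPKM, median log2 difference -1.10). The part of these 3 lists in the differences of Hdac11 and Hdac1 was not tested. Hdac1 stood at 32.5, 30.6, 34.9, 38.9 and 34.8 CPM after saline and at 27.7 to 36.0 CPM after cocaine (median 29.5). For Hdac1, 4 of 6 cocaine libraries were below all saline libraries (-0.17, SE 0.0821, edgeR adjusted p = 0.447, exact permutation p = 0.0671). Hdac9 differed by 0.19 (SE 0.122), the Hdac4 3′ row by -0.15 (SE 0.104), Hdac4 by 0.13 (SE 0.164) and Ehmt2 by 0.11 (SE 0.0814). The differences of Hdac2 (0.00, SE 0.106), Hdac3 (-0.03), Hdac5 (-0.01) and Hdac7 (-0.01) were smaller. For Hdac2 and Hdac3 saline replicate 1 was the highest of the group (75.7 and 126 CPM), and without it the Hdac2 difference was 0.14.

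Between the VTA time points, the cocaine difference of Hdac11 went from below 0 at 1 day to above 0 at 28 days. In an edgeR model over the reads recovered at 1 day and the counts at 28 days, chosen after seeing the data, the difference of the differences was 0.43 (SE 0.107), with an edgeR adjusted p of 0.162 over 17197 genes. Leaving out each library in turn gave 0.39 to 0.52, with adjusted p from 0.0503 to 0.348. The other rows with an unadjusted p under 0.05 were Hdac1 (-0.40, SE 0.138, edgeR adjusted p = 0.178), the Hdac4 3′ row (-0.40, SE 0.151, adjusted p = 0.206) and Hdac9 (0.38, SE 0.162, adjusted p = 0.261). Over all genes 0% were called in this test, while 2691 had an unadjusted p under 0.05, or 15.6%. Sets of cell type markers also differed between treatments at each time, and some changed sign too. At 1 and 28 days the median log2 difference was 1.44 and -1.10 for fibroblast markers and 0.21 and -0.48 for endothelium markers. It was 0.70 and -0.21 for cortical neuron markers and -0.58 and 0.12 for dopamine neuron markers. Microglia (-0.53 and -0.31) and oligodendrocyte markers (-0.20 and -0.39) kept their sign. The part of all these markers in the member values was not tested in this model. Across regions at 28 days, the test of whether the cocaine difference varied among NAc, VTA and PFC called 6 of 17679 genes (0.0339%) and no member, the smallest edgeR adjusted p among members being those of Hdac11 (0.502) and Ehmt2 (0.526).

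**Figure D4:**
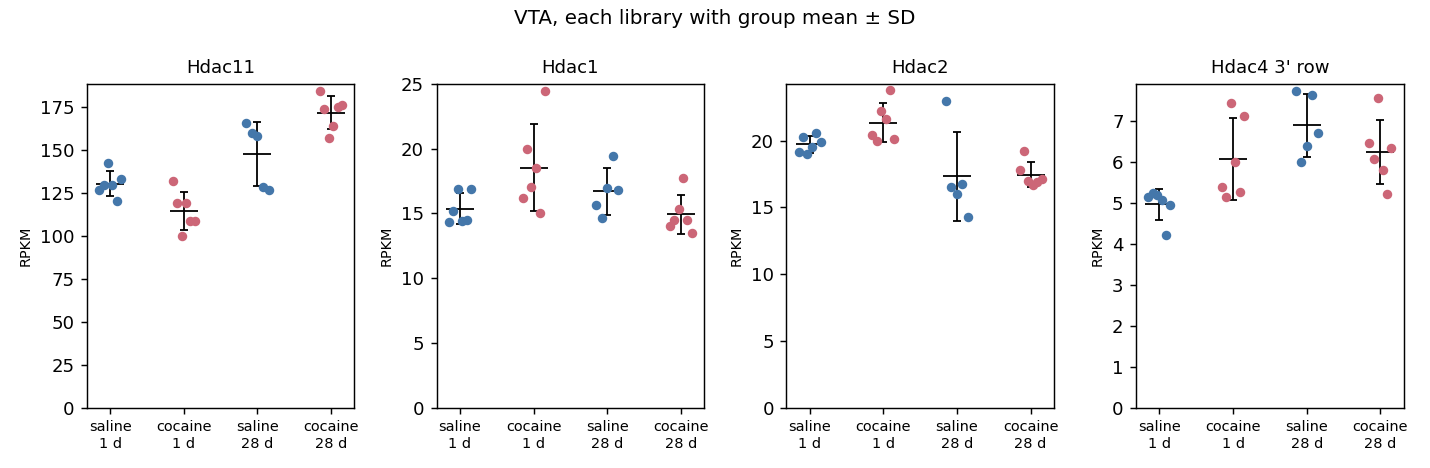
Level in every VTA library (RPKM, axes from 0) of the 4 member rows Hdac11, Hdac1, Hdac2 and the Hdac4 3′ row, for saline (blue) and cocaine (red) at 1 and 28 days, with the group mean ± SD (n = 6, 5 for saline at 28 days). Mean Hdac11 goes from 130.2 to 115 RPKM with cocaine at 1 day and from 147.8 to 171.7 RPKM at 28 days, and the groups overlap at both times.

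In the PFC 9 of 11 member differences were negative at 1 day (45.4% of all genes were positive) and 5 of 11 at 28 days. The largest was that of Hdac7 at 1 day, a class IIa enzyme best known from vessels and lymphocytes. Its level was 3.77 to 6.31 RPKM after saline (median 5.16) and 3.33 to 5.37 RPKM after cocaine (median 4.33), with overlap (-0.22, SE 0.131, limma adjusted p = 0.913). In the same libraries 6 of 7 endothelium markers were lower after cocaine, 3 at an unadjusted p under 0.05 and 0 called (75.1 to 95.7 RPKM after saline, 64.5 to 93.0 after cocaine), as were all 4 fibroblast markers tested (6.61 to 17.9 and 4.66 to 11.7 RPKM over 5 markers), and their part in the Hdac7 value was not tested. Hdac5 differed by -0.11 (SE 0.132) and Ehmt2 by -0.14 (SE 0.117) at 1 day, and 0 of 6 cocaine libraries were above the saline mean of Ehmt2. At 28 days the largest differences were those of Hdac9 (0.19, SE 0.107, edgeR adjusted p = 0.842), and of the Hdac4 3′ row (0.13, SE 0.0677, adjusted p = 0.842). For Hdac9 the saline libraries were at 28.9 to 47.4 CPM (median 42.6) and the cocaine libraries at 40.2 to 56.2 CPM (median 46.4), and the lowest saline value was that of replicate 4, the library with striatal markers. Ehmt1 differed by 0.00 (SE 0.0466) and Hdac4 by -0.00 (SE 0.0766). The time interaction in the PFC called 0.00604% of 16565 genes and no member, with Hdac7 the furthest (0.29, SE 0.159, edgeR adjusted p = 0.994).

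The partners, opponents and readers of these enzymes were followed as 7 lists of other genes, chosen with earlier results of these data known. None of their genes was called in any of the 6 tables. In the VTA at 1 day, where the median over all genes was 0.03, 58.9% of all genes were positive and 15.7% had an unadjusted p under 0.05, the 36 subunits of deacetylase complexes tested had 31 positive differences (median 0.11), 11 of them with an unadjusted p under 0.05 and 0 negative ones. The smallest p was that of Ncor1, the scaffold through which Hdac3 is activated (17.6 RPKM ± 0.731 after saline, 20.1 ± 0.385 after cocaine, log2 difference 0.19, limma adjusted p = 0.0837). Of 11 H3K9 demethylases, which undo the mark of Ehmt1 and Ehmt2, 10 were positive, led by Kdm4c (0.24, limma adjusted p = 0.114), and of 7 other H3K9 methyltransferases 7 were, led by Setdb1 (0.22, adjusted p = 0.122). All 11 Ehmt partners and readers of H3K9 methylation tested were positive (Cdyl 0.27, limma adjusted p = 0.281), as were 8 of 10 acetyltransferases (Ep300 0.18, adjusted p = 0.194) and 6 of 10 other deacetylases (Sirt4 0.21, adjusted p = 0.341). Of 15 class IIa partners 7 were positive. Mef2c, a transcription factor that class IIa HDACs repress, had the smallest p there (2.92 RPKM ± 0.401 after saline, 3.82 ± 0.416 after cocaine, 0.38, limma adjusted p = 0.134). The differences in cell type markers given for this table stand beside these counts too.

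In the other tables these lists had medians between -0.06 and 0.07. In the NAc at 1 day, the genes with the smallest p were Phf8, an H3K9 demethylase (0.21, edgeR adjusted p = 0.879), Setdb1 (0.17), Sirt1 (0.21), Arid4a (0.11), Ep300 (0.14), Sik2 (0.15) and Cbx1 (0.08), each with an adjusted p of 1.00 after rounding except Phf8. At 28 days in the NAc they were Mecom (-0.29, edgeR adjusted p = 0.655), Ywhaq (0.12, adjusted p = 0.690), Tbl1xr1 (-0.11), Sirt7 (-0.11), Kdm4b (-0.14), Trim28 (0.06) and Ep300 (0.07). In the VTA at 28 days Chd3, the remodeling ATPase of NuRD, had the smallest p (508 CPM ± 43.2 after saline, 604 ± 35.4 after cocaine, 0.24, edgeR adjusted p = 0.389), followed by Sirt4 (0.20, adjusted p = 0.394) and Kdm4b (0.15, adjusted p = 0.417). Ywhag (0.16), Uhrf1 (0.41), Mecom (-0.37) and Kat2a (0.08) led the other lists of that table. In the PFC at 1 day the leading genes were Kat2b (0.24), Sirt1 (0.15), Prdm16 (-0.22), Mphosph8 (0.11), Rest (-0.20), Jhdm1d (0.14) and Ywhaq (0.12), all with a limma adjusted p of 0.913. At 28 days they were Mier3 (0.14), Sik2 (-0.24), Sirt4 (0.21), Brd1 (-0.08), Cbx3 (-0.09) and Kdm4b (-0.14), all with an edgeR adjusted p of 0.842, and Setdb2 (-0.08, adjusted p = 0.933). Between regions in saline at 28 days the H3K9 demethylases had 9 of 11 genes called higher in the NAc than in the VTA and 0 lower, and 24 of 36 complex subunits were called higher in the NAc and 5 lower. Over the 7 lists the share called ran from 57.1% to 86.7% between NAc and VTA (67.1% of all genes), from 8.33% to 72.7% between NAc and PFC (46.5%) and from 50% to 80% between VTA and PFC (63%). The lowest of these was that of the Ehmt partners and readers between NAc and PFC, with 1 of 12 called.

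Within groups, the members' deviations from their group means were correlated over the libraries, given as a description, since libraries share depth, dissection and cell makeup. Over the 35 libraries at 28 days the Hdac4 3′ row and Hdac5 had r = 0.78, and over the 36 libraries at 1 day 0.60. Hdac2 ran against other members at both times, with r = -0.64 and -0.75 for Hdac7, -0.65 and -0.63 for Hdac4, and -0.46 and -0.76 for Hdac5 (28 days and 1 day). Hdac1 and Hdac7 had 0.55 and 0.58 in the same order, and Hdac2 and Ehmt1 had -0.60 and -0.53. Some other pairs did not keep their value. Hdac2 and Hdac3 had r = 0.61 at 28 days and 0.05 at 1 day, and Hdac4 and Ehmt2 had -0.41 and 0.57. Ehmt1 and Ehmt2, partners in 1 complex, had -0.12 and 0.70.

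**Figure D5:**
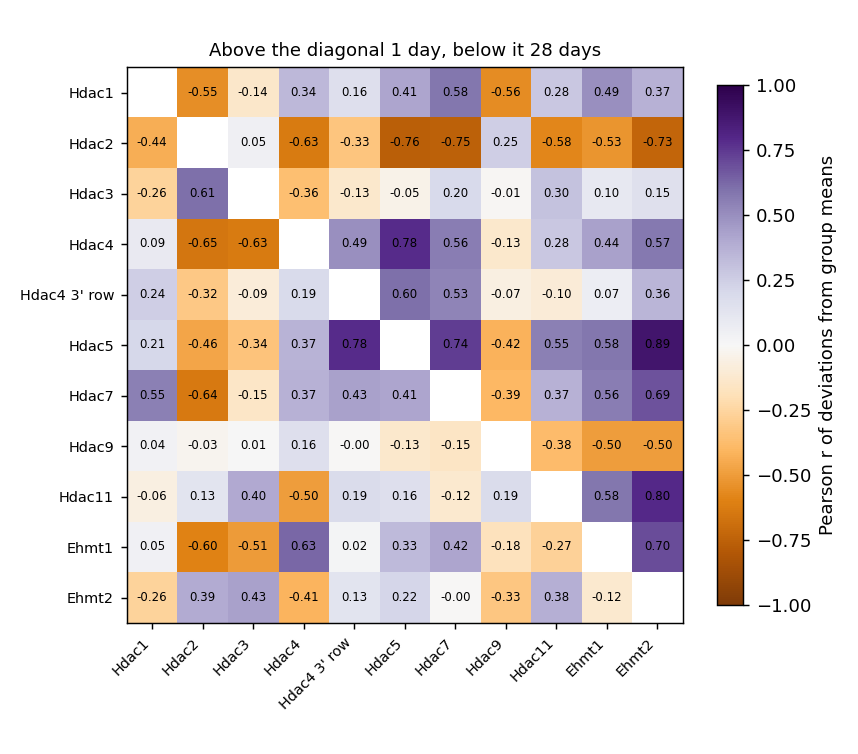
Pearson r between the log2 levels of member rows after the mean of each group was taken off, above the diagonal over the 36 libraries at 1 day and below it over the 35 libraries at 28 days (color scale from -1 to 1). Hdac2 has negative values against Hdac4, Hdac5 and Hdac7 on both sides, while Hdac2 and Hdac3 have 0.61 below and 0.05 above.

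Over all 35 libraries at 28 days, with regions included, the gene whose log2 level was most like that of a member was Syngr2 for Hdac1 (r = 0.922), Hp1bp3 for Hdac2 (0.964), Nop56 for Hdac3 (0.847), B930095G15Rik for Hdac4 (0.943) and Olfm1 for the Hdac4 3′ row (0.933). For Hdac7 it was Adamts10 (0.850), for Hdac9 Dnajc6 (0.974), for Hdac11 Tmem130 (0.968), for Ehmt1 Zfp236 (0.959) and for Ehmt2 Pdzd4 (0.985). Of these the closest likeness was that of Ehmt2, and the least close was that of Hdac3.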

How the data were processed

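RNA-seq libraries took their groups from the labels. Per the labels and the submitters' processing notes, the authors aligned reads with STAR 2.4.1d to mm9. The authors deposited raw counts of reads per gene for the NAc at both times and the VTA and PFC at 28 days, and deposited RPKM values, scaled by gene length and library reads, for the VTA and PFC at 1 day. Columns with the authors' fold changes and p-values were not used, and 30 columns of other samples were not used. The members and gene lists were chosen with earlier results of these data known.

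Counts were tested with edgeR 4.0.16 in R 4.3.3 (filterByExpr with a minimum count of 10 and total of 15, TMM, glmQLFTest), and RPKM values with limma 3.58.1, after adding 0.1 and taking log2, where the mean was 0.5 or more. Benjamini-Hochberg adjustment covered all genes of a table, with a threshold of 0.05. For each member an exact permutation test (two-sided, on mean log2 levels) was also run (924 divisions, 462 for the VTA at 28 days). Intervals are the estimate ± a normal 95% margin and are approximate. Whole reads were recovered from RPKM for all genes with reads (within 0.01 reads) and used in the VTA and PFC time interactions. Alternatives were DESeq2 1.42.0, its size factors, other filters and pseudocounts, a threshold of 0.25, the replicate number as a block, marker covariates, and leaving out each library. The dopamine neuron, microglia, fibroblast and oligodendrocyte covariates, limma without trend, and the VTA and PFC time interactions were added after seeing the data. In each list of other genes, those called or, with none called, the 1 with the smallest p are named, and for likeness the gene with the highest r (that for Hdac5 is not reported here). The tests were checked on simulated data.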

Additional observations from a re-analysis of the deposited data

Results flagged for a closer look

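Of the 132 sets of libraries (11 member rows in 12 groups), 12 had a library farther from the others than Dixon's 95% limit allows. Chance alone flags about 1 in 20 such sets, and 0 differences of a cocaine effect between times or regions passed a test. Hdac2 was lowest in cocaine replicate 5 of the NAc at 1 day, at 88.4 CPM, with the other libraries between 102 and 109 CPM. Hdac2 was highest in saline replicate 4 of the NAc at 1 day, at 129 CPM, with the other libraries between 92.8 and 100.4 CPM. Hdac4 3′ row was highest in cocaine replicate 6 of the NAc at 1 day, at 15.1 CPM, with the other libraries between 11.2 and 12.4 CPM. Hdac5 was lowest in saline replicate 4 of the NAc at 1 day, at 49.3 CPM, with the other libraries between 76.9 and 92.6 CPM. Hdac11 was highest in cocaine replicate 5 of the NAc at 1 day, at 246 CPM, with the other libraries between 170.3 and 192 CPM. Hdac4 3′ row was lowest in saline replicate 5 of the VTA at 1 day, at 4.22 RPKM, with the other libraries between 4.94 and 5.25 RPKM. Hdac7 was highest in cocaine replicate 6 of the VTA at 1 day, at 9.97 RPKM, with the other libraries between 4.94 and 6.76 RPKM. Hdac9 was lowest in cocaine replicate 6 of the VTA at 1 day, at 5.52 RPKM, with the other libraries between 6.92 and 7.53 RPKM. Ehmt2 was lowest in cocaine replicate 5 of the PFC at 1 day, at 18.9 RPKM, with the other libraries between 24.9 and 27.7 RPKM. Hdac2 was highest in saline replicate 1 of the VTA at 28 days, at 75.7 CPM, with the other libraries between 47 and 54.9 CPM. Hdac9 was lowest in saline replicate 4 of the PFC at 28 days, at 28.9 CPM, with the other libraries between 41.4 and 47.4 CPM. Hdac11 was highest in cocaine replicate 3 of the PFC at 28 days, at 269 CPM, with the other libraries between 249 and 255 CPM. Of these, the NAc saline replicate 4 at 1 day, the NAc cocaine replicate 5 at 1 day and the VTA cocaine replicate 6 at 1 day each appear for 2 members. The PFC saline replicate 4 at 28 days is the library with striatal neuron markers.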

How the results depend on the processing

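In the cocaine comparisons and their interactions with time, no member row was called at an adjusted p under 0.05 when the processing changed. This covered 429 member results under other settings and 1562 without 1 library, with 11 member rows read from each fit. The 429 include the threshold of 0.25, which reads the main fit again. At an adjusted p under 0.25 Hdac11 and the Hdac4 3′ row would pass in the VTA at 1 day, among 1309 of the 15042 genes tested there. Standard errors of 0.0407 to 0.181 limit what could be shown.

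The number of genes called changed more. DESeq2 called 19 genes in the NAc at 1 day in place of 2, 11 in the NAc, 74 in the VTA and 2 in the PFC at 28 days in place of 0, and 10 in the NAc time interaction in place of 3. In the VTA at 1 day the 10 genes became 55 with edgeR on recovered reads, 28 with limma without trend, 1309 at an adjusted p under 0.25, and 0 with a cortical neuron, microglia or fibroblast covariate. The PFC at 1 day had 4 genes in place of 1 at an adjusted p under 0.25, and the region interaction 3 in place of 6 with no filter. The cause of these changes was not tested.

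Without 1 library the counts ran from 0 to 2 (NAc at 1 day), 0 to 65 (VTA at 1 day, the highest without cocaine replicate 6), 1 to 2 (PFC at 1 day), 0 to 2 (NAc at 28 days), 1 to 5 (NAc time interaction), 0 to 13 (VTA time interaction, the highest without 28-day saline replicate 2) and 0 to 130 (region interaction, the highest without VTA saline replicate 1).

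The replicate number was used as a block at 1 day only, because the column numbers at 28 days cannot be tied to the labelled samples. With it 2 genes were called in the NAc, 60 in the VTA in place of 10, and 1 in the PFC, and no member. Same-numbered libraries correlated from -0.47 to 0.60, and whether the numbers pair them was not tested.

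Signs turned in members that were not called. In the VTA at 1 day Hdac5 was -0.034 with recovered reads, -0.0099, -0.16 and -0.11 with the cortical, dopamine neuron and fibroblast covariates, Hdac9 0.0085 with the dopamine neuron, Hdac2 -0.0042 with the microglia and Hdac4 -0.016 with the fibroblast covariate. With the microglia covariate Hdac5 was 0.41 (adjusted p = 0.272), the same sign as the 0.014 reported. In the VTA at 28 days Hdac7 was 0.00081 with no filter and Hdac2 -0.11 with the oligodendrocyte covariate. Between regions, Hdac5 was 0.15 and Hdac7 -0.0097 for VTA against PFC in the 1-day libraries, and Hdac1 was 0.017 for NAc against PFC and Hdac5 0.0204 for VTA against PFC in the cocaine groups. In the 1-day libraries Hdac5 and Ehmt2 were no longer called between NAc and PFC (adjusted p = 0.288 and 0.267), whereas 8 calls were gained under other settings. Hdac5 passed between NAc and VTA in the 1-day libraries (adjusted p = 0.0263), with DESeq2 (0.0460), with its size factors (0.0432) and in the cocaine groups (0.0163). Hdac3 passed there with DESeq2 size factors (0.0468) and in the cocaine groups (0.0437), and Hdac7 between NAc and PFC in the 1-day libraries (0.0432) and the cocaine groups (0.00387).

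Without 1 library the sign turned in these log2 differences. For Ehmt1 they ran from -0.034 to 0.050 (NAc 1 day), -0.014 to 0.041 (NAc 28 days), -0.026 to 0.058 (NAc time interaction), -0.015 to 0.026 (PFC 28 days), -0.062 to 0.044 (VTA time interaction). For Ehmt2 they ran from -0.15 to 0.023 (NAc 1 day), -0.089 to 0.081 (NAc time interaction), -0.013 to 0.15 (VTA time interaction). For Hdac1 they ran from -0.0035 to 0.085 (NAc time interaction), -0.054 to 0.0070 (PFC 1 day). For Hdac11 they ran from -0.073 to 0.0055 (PFC 1 day), -0.051 to 0.025 (PFC time interaction). For Hdac2 they ran from -0.019 to 0.083 (NAc 1 day), -0.019 to 0.11 (NAc time interaction), -0.050 to 0.012 (PFC time interaction), -0.051 to 0.14 (VTA 28 days), -0.13 to 0.095 (VTA time interaction). For Hdac3 they ran from -0.043 to 0.0048 (NAc 28 days), -0.073 to 0.075 (VTA 28 days), -0.014 to 0.15 (VTA against PFC), -0.067 to 0.10 (VTA time interaction). For Hdac4 3′ row they ran from -0.085 to 0.095 (NAc against VTA), -0.082 to 0.00031 (PFC 1 day). For Hdac4 they ran from -0.026 to 0.083 (NAc 28 days), -0.19 to 0.037 (NAc against VTA), -0.054 to 0.033 (PFC 28 days), -0.010 to 0.22 (VTA 28 days), -0.16 to 0.059 (VTA time interaction). For Hdac5 they ran from -0.076 to 0.023 (NAc 28 days), -0.0031 to 0.15 (NAc time interaction), -0.0043 to 0.15 (PFC time interaction), -0.050 to 0.086 (VTA 1 day), -0.055 to 0.016 (VTA 28 days), -0.079 to 0.096 (VTA time interaction). For Hdac7 they ran from -0.12 to 0.066 (NAc time interaction), -0.0047 to 0.091 (PFC 28 days), -0.054 to 0.061 (VTA 28 days). For Hdac9 they ran from -0.25 to 0.012 (NAc 1 day), -0.026 to 0.057 (PFC 1 day).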

Other observations

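The spread between libraries differed among the members. The SD of the log2 level within a group, as the median over the 12 groups, was lowest for Hdac3 (0.0898) and Hdac2 (0.0928) and highest for Hdac7 (0.219) and Hdac9 (0.215), with 0.183 for Hdac5 and 0.134 for Ehmt2. The widest single group was that of Hdac4 (0.437), and for Ehmt2 the SD ranged from 0.0356 to 0.374 over the groups.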
